A study of Homo sapiens with 4 samples.

Results

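The genes described here code for the proteases that cut the extracellular matrix and shed proteins from the cell surface, and for their dedicated inhibitors. They were taken by symbol: MMP, ADAM, ADAMTS or ADAMTSL followed by a number, TIMP1 to TIMP4, and RECK. Of 18244 genes with a probe set that named 1 gene alone, 71 met this rule, namely 22 MMP genes, 19 ADAM genes, 18 ADAMTS genes, 5 ADAMTSL genes, 4 TIMP genes with RECK, 1 antisense transcript (ADAMTSL4-AS1) and 1 pseudogene (ADAM3A). Each gene was represented by its brightest probe set by the mean over all arrays.

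Expression was measured on 4 Affymetrix PrimeView arrays of Kelly cells, an established human neuroblastoma line, in a derivative resistant to the ALK kinase inhibitor TAE684. The 2 shBORIS arrays came from cells given virus with a hairpin against BORIS, the product of CTCFL and a germ-line paralog of the genome-folding factor CTCF. The 2 shLUC arrays came from cells given a hairpin against luciferase. Cells of both groups grew in 1 µM TAE684, were exposed to virus with polybrene for 24 h and were selected in puromycin for 48 h, so neither group is free of the inhibitor or of viral infection. The labels name 1 hairpin against BORIS, so off-target effects of it and loss of BORIS cannot be told apart. They describe the arrays of a group as biological duplicates, and the p-values rest on the spread within these pairs, pooled in part or wholly over genes of like intensity.

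Matrix metalloproteinases (MMPs) are zinc enzymes made as inactive precursors, some secreted and some anchored in the membrane, that together can degrade most matrix proteins. ADAM proteins are membrane-bound relatives that release growth factors, adhesion molecules and receptor ectodomains, and ADAMTS proteins are secreted relatives that cut proteoglycans, procollagens and von Willebrand factor. TIMPs block the active site of these enzymes, and RECK is a membrane-anchored inhibitor of several MMPs. In neuroblastoma, gelatinases and their inhibitors have been studied mainly for their part in invasion.

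The hairpin's target was lower on both shBORIS arrays by its brightest probe set, with CTCFL intensities of 701 and 737 in shBORIS cells against 3563 and 3376 in shLUC cells, a log2 difference of -2.25 as deposited. CTCFL has 7 probe sets, and the brighter ones read -3.05 to -1.26 as deposited. A dimmer one, at 172 and 177 in shBORIS cells and 188 and 136 in shLUC cells, read 0.11. The dimmest, at 55.6 and 54.9 in shBORIS cells and 39.5 and 37.7 in shLUC cells, read 0.39. Markers of the labelled cell type were present, since 8 of 8 neuroblastoma genes on the array (among them MYCN, PHOX2A, HAND2 and DBH) lay above background on all arrays. On the deposited scale most genes were brighter in shBORIS cells, with a median log2 difference of 0.48 over the 10946 genes tested, while synthetic ERCC spike-in RNAs had median intensities of 25.5 and 25.8 in shBORIS cells and 24.8 and 24.4 in shLUC cells. These ERCC medians lay under the background limit at 17 G or C described below. The mean log2(intensity + 16) over all ERCC probe sets was 6.38 and 6.38 in shBORIS cells and 6.38 and 6.37 in shLUC cells. As the scaling between arrays was not stated, the source of the shift was not tested. Differences are therefore given as deposited and after centring, that is, relative to the median gene, once the median log2 value of an array had been taken from all its genes. Differences are on the log2(intensity + 16) scale, which understates the change of dim genes, and folds are taken from it. A gene is said to have risen, fallen or been called on a scale where its limma p-value, adjusted over all 10946 genes, was under 0.05 there. As deposited, limma took the variance of a gene wholly from genes of like intensity. The deposited p-values and SEs therefore do not measure the spread between that gene's own duplicate arrays. After centring, the gene's own spread counted as well. Of the 8 neuroblastoma genes, 4 were called higher and 0 lower as deposited, where 77.2% and 4.64% of all genes tested were. After centring 2 of these 8 rose and 6 fell, where 30.3% and 28.8% of all genes tested did. In RNA from whole cultures, fewer cells that express a gene and less RNA per cell cannot be told apart.

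Most of these genes were dim. Background was judged from control probe sets that match no transcript and differ in how many of their 25 bases are G or C. The 95th percentile of all such controls, 396 and 438 for shBORIS and 281 and 284 for shLUC, was set by controls made almost wholly of G and C, and 3 members exceeded it on all arrays (ADAM17, TIMP1 and TIMP2). A limit at the brightest control with at most 17 G or C, chosen after the values were seen, lay at 36.8 and 38.8 for shBORIS and at 32.4 and 31.5 for shLUC. By that limit 41 members were above background on all arrays, 20 were above it on no array, and 10 were above it on 1 to 3 arrays.

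In the RefSeq gene order, 9 neighbouring MMP genes run from MMP7 to MMP13, including the collagenases MMP1 and MMP8, the stromelysins MMP3 and MMP10, the macrophage elastase MMP12 and the enamel protease MMP20. Of these, 7 were above the limit on no array, and MMP3 read 8.06 and 11.9 in shBORIS cells and 13.6 and 9.39 in shLUC cells. Among ADAM genes, those known mainly from testis and sperm (ADAM2, ADAM18, ADAM20, ADAM21, ADAM29, ADAM30 and ADAM32) were also above it on no array. The other 6 genes above it on no array were MMP21, ADAMTS8, ADAMTS10, ADAMTSL3, ADAM3A and ADAMTSL4-AS1.

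**Figure D1:**
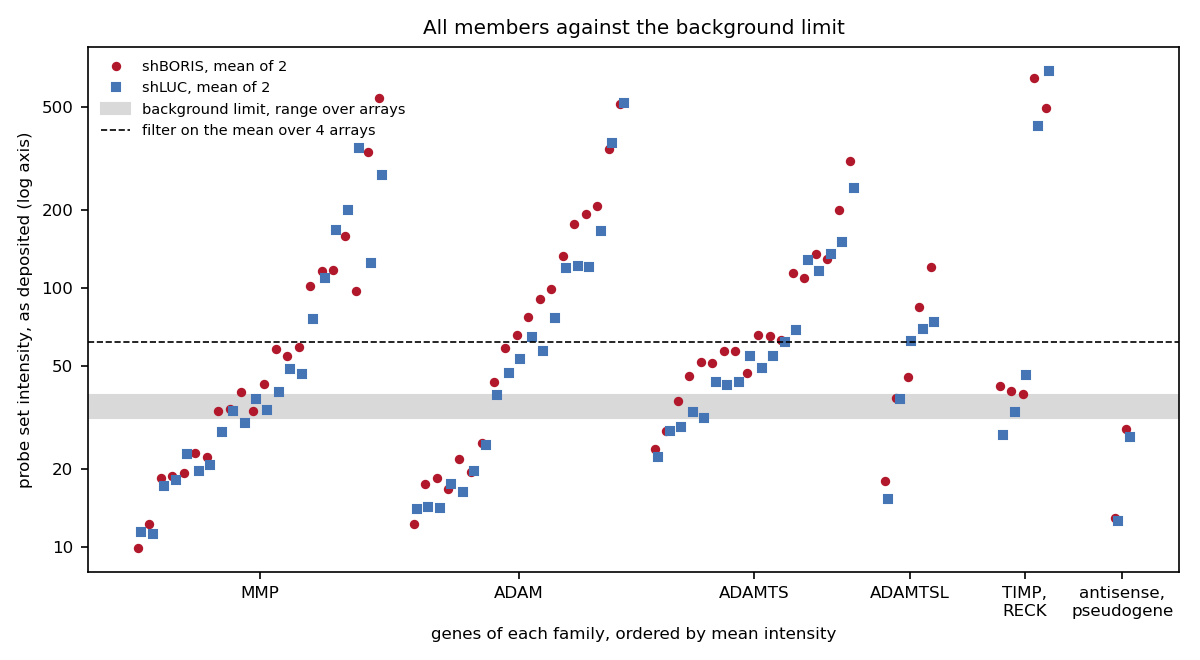
Intensity of the brightest probe set of each of the 71 members as deposited, on a log axis, with the mean of the 2 shBORIS arrays (circles) left of the mean of the 2 shLUC arrays (squares) and genes ordered by mean within each family. The grey band spans the background limit over the arrays and the dashed line is the filter at 62.2; 27 members lie at or above the filter.

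The test was run on genes with a mean intensity of at least 62.2, the 40th percentile over all genes, and 27 members passed this filter. As deposited, 13 of the 27 were called higher and 4 lower in shBORIS cells, or 48.1% and 14.8%, where 77.2% of all genes tested were called higher and 4.64% lower. Relative to the median gene, 2 rose and 13 fell, or 7.41% and 48.1%, where 30.3% of all genes tested rose and 28.8% fell. The median member differed by 0.23 as deposited and by -0.25 after centring, against 0.48 and 0.00 for all genes tested, and without shLUC replicate 1 these medians of the members were 0.34 and -0.19. In either direction 17 members were called as deposited and 15 after centring, where 81.9% and 59.1% of all genes tested were. The arrays of the groups did not overlap for 23 of the 27 members as deposited, or 85.2%, against 90.4% of all genes tested, and for 20 after centring, or 74.1%, against 79.3%. A call with a difference of at least 2-fold was made for 1 member higher as deposited (MMP24; 6.65% of all genes tested), and for MMP9 as the 1 member lower both as deposited (0.338%) and after centring (1.7%).

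The calls agreed on both scales for 6 members, but this is no second line of evidence, as centring lowered every difference by the same amount. All 508 genes called lower as deposited were also called lower after centring. All 3315 genes called higher after centring were also called higher as deposited. MMP9, TIMP2, MMP11 and MMP17 were called lower on both (14.8% of tested members, against 4.64% of all genes tested), and MMP24 and MMP2 were called higher on both (7.41% against 30.3%). Another 9 members were not called as deposited and fell after centring, and 11 were called higher as deposited and not called relative to it. ADAMTSL5 was called on neither scale.

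**Figure D2:**
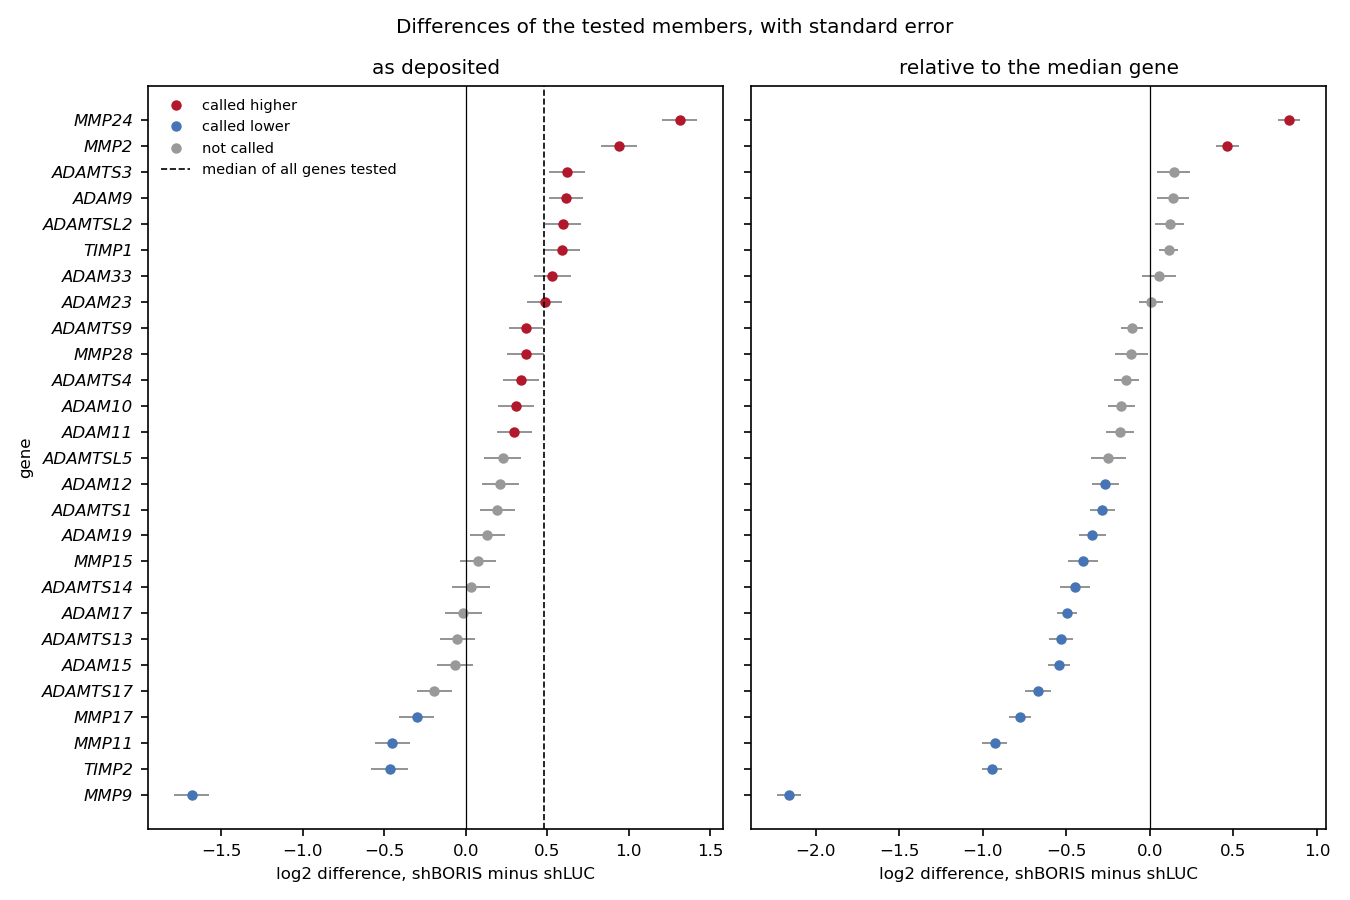
Log2 difference (shBORIS minus shLUC) with its standard error for the 27 tested members as deposited (left) and after centring (right), coloured by call, with the median of all genes tested dashed at 0.48 on the left. MMP9 lies apart at the low end on both scales and MMP24 and MMP2 at the high end.

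The gelatinases, MMP9 and MMP2, which degrade denatured collagen and basement membrane collagen, moved in opposite directions. MMP9 had intensities of 89.4 and 105.7 in shBORIS cells and of 360 and 335 in shLUC cells. Both shBORIS arrays were far below both shLUC arrays, though still above the limit set by controls with at most 17 G or C. The fall was 3.21-fold as deposited (log2 -1.68, SE 0.11) and 4.47-fold after centring (log2 -2.16, SE 0.07; limma adjusted p = 3.90e-08), which ranked 10 from the lowest among the 10946 genes tested. The array has 1 probe set that names MMP9 alone, so no other probe set bears on this value. MMP2 had intensities of 537 and 543 in shBORIS cells and of 267 and 280 in shLUC cells. It was higher on both shBORIS arrays, 1.92-fold as deposited and 1.38-fold after centring (log2 0.46, SE 0.07; limma adjusted p = 3.05e-04). The 3 probe sets of MMP2 above the filter differed by 0.44 to 0.50 after centring, and the dimmest, with a mean intensity of 29.5, differed by -0.06.

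The membrane-anchored MMPs also went different ways. MMP24 (MT5-MMP), a transmembrane protease found mostly in nervous tissue that can cleave N-cadherin, had intensities of 325 and 344 in shBORIS cells and of 126 and 124 in shLUC cells. The groups did not overlap, and MMP24 rose 2.48-fold as deposited and 1.78-fold after centring (log2 0.83, SE 0.07; limma adjusted p = 5.18e-06). MMP24 overlaps MMP24OS and a readthrough gene in RefSeq. Its dimmer probe set had the same sign, at 78.9 and 83.7 in shBORIS cells and 41.6 and 37.7 in shLUC cells. MMP17 (MT4-MMP), held to the membrane by a lipid anchor, had intensities of 149 and 170 in shBORIS cells and of 205 and 194 in shLUC cells. It fell by 0.30 as deposited and by 0.78 after centring on the log2 scale (SE 0.07; limma adjusted p = 9.22e-06). The deposited call was lost without shBORIS replicate 1 (limma adjusted p = 0.129) or without shLUC replicate 1 (limma adjusted p = 0.058). MMP15 (MT2-MMP) fell by 0.40 after centring and read 0.08 as deposited, with shBORIS intensities of 102 and 131 on either side of the shLUC values of 114 and 104. MMP14 (MT1-MMP), the main activator of the MMP2 precursor, was under the filter, at 53.0 and 56.1 in shBORIS cells and 51.1 and 46.5 in shLUC cells. Its difference was 0.12 as deposited and -0.35 after centring (limma adjusted p = 0.00641 over all cellular probe sets).

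Among the remaining secreted MMPs, MMP11 (stromelysin 3), which is activated inside the cell by furin, had intensities of 114 and 122 in shBORIS cells and of 167 and 167 in shLUC cells. It fell by 0.45 as deposited and by 0.93 after centring on the log2 scale (SE 0.07; limma adjusted p = 4.98e-06). Its probe sets disagreed. The other one, at 97.6 and 117.6 in shBORIS cells and 74.2 and 89.3 in shLUC cells, was higher by 0.34 as deposited, and the mean of both gave -0.06 as deposited (limma adjusted p = 0.546), so the fall of MMP11 is uncertain. MMP28 (epilysin), a protease of epithelia and other tissues, was called higher by 0.37 as deposited and read -0.11 after centring, where it was not called.

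The promoters of MMP24 and MMP11 are printed because MMP24 was called higher and MMP11, with the disagreement just given, lower, and both sequences were in the RefSeq promoter table (GRCh38.p14), which matched 44 of the 71 members. Each run gives the 250 bases before the annotated start on the plus strand, at chr20:35226440-35226689 for MMP24 and chr22:23772599-23772848 for MMP11, with capitals marking GC boxes, the GGGCGG motif bound by Sp-family factors, on either strand.
MMP24: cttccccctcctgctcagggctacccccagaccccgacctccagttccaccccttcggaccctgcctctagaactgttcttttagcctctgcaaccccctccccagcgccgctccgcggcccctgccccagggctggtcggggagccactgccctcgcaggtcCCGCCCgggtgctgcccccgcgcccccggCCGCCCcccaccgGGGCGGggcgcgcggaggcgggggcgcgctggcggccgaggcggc
MMP11: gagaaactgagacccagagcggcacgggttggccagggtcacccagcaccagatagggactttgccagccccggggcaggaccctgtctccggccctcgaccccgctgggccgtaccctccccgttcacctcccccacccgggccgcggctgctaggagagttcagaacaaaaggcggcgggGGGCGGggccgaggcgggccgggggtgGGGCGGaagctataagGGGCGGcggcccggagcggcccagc
Each of these promoters held 3 GC boxes that did not overlap, and 77.6% of the MMP24 bases and 73.2% of the MMP11 bases were G or C. A GC box was found in 15 of the 16 tested members with a promoter in the table (93.8%), in 14 of 29 promoters of untested members (48.3%), in 64.1% of the promoters of all genes tested and in 42.6% of all promoters in the table. Also on either strand, the AP-1 motif TGANTCA was found in 0 of the 16 (4.06% for all genes tested) and the E-box CACGTG bound by MYC-family factors in 2 of the 16 (8.34%), ADAM10 and ADAMTS17. None of these motifs contains another.

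Of the inhibitors, TIMP2 fell. TIMP2, which blocks MMPs and also docks the MMP2 precursor to MMP14, had intensities of 465 and 521 in shBORIS cells and of 734 and 642 in shLUC cells. The groups did not overlap, and TIMP2 was 1.38-fold lower as deposited and 1.92-fold lower after centring (log2 -0.94, SE 0.06; limma adjusted p = 1.48e-06). Its other probe set fell by 0.68 after centring and read -0.20 as deposited, where it was not called (limma adjusted p = 0.102 over all cellular probe sets).

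TIMP1, a secreted inhibitor induced by cytokines and growth factors, had intensities of 617 and 673 in shBORIS cells and of 425 and 421 in shLUC cells. It was called higher by 0.59 as deposited and read 0.11 after centring, where it was not called (limma adjusted p = 0.129). The centred call was gained with no filter (0.23, limma adjusted p = 0.00778) and with a pseudocount of 64 (limma adjusted p = 0.0492), and the other bright probe set of TIMP1 was called higher by 0.16 (limma adjusted p = 0.0399 over all cellular probe sets). The other inhibitors lay near background. TIMP3, which binds to the matrix and inhibits ADAM17, had 40.2 and 38.1 in shBORIS cells and 44.0 and 48.4 in shLUC cells. It was close to the limit on the shBORIS arrays and above it on both shLUC arrays. Its difference was -0.17 as deposited and -0.65 after centring (limma adjusted p = 3.31e-04 over all cellular probe sets). The 2 dimmer probe sets of TIMP3 were under the limit on all arrays. They read -0.10 and -0.26 as deposited and -0.58 and -0.74 after centring. MMP3, above the limit on no array, also read -0.56 after centring, so these dimmer probe sets add no support for a fall of TIMP3. TIMP4 had 40.8 and 43.4 in shBORIS cells and 28.4 and 26.1 in shLUC cells. As TIMP4 was not above background on either shLUC array, its difference is only bounded, at least 1.31-fold higher in shBORIS cells (limma adjusted p = 5.83e-04 as deposited, fitted with no filter), and after centring it read -0.05 and was not called (limma adjusted p = 0.677 over all cellular probe sets). RECK had 41.6 and 38.6 in shBORIS cells and 30.9 and 35.4 in shLUC cells, and was not called as deposited with no filter (limma adjusted p = 0.148), with a centred -0.29 (limma adjusted p = 0.0453 over all cellular probe sets).

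**Figure D3:**
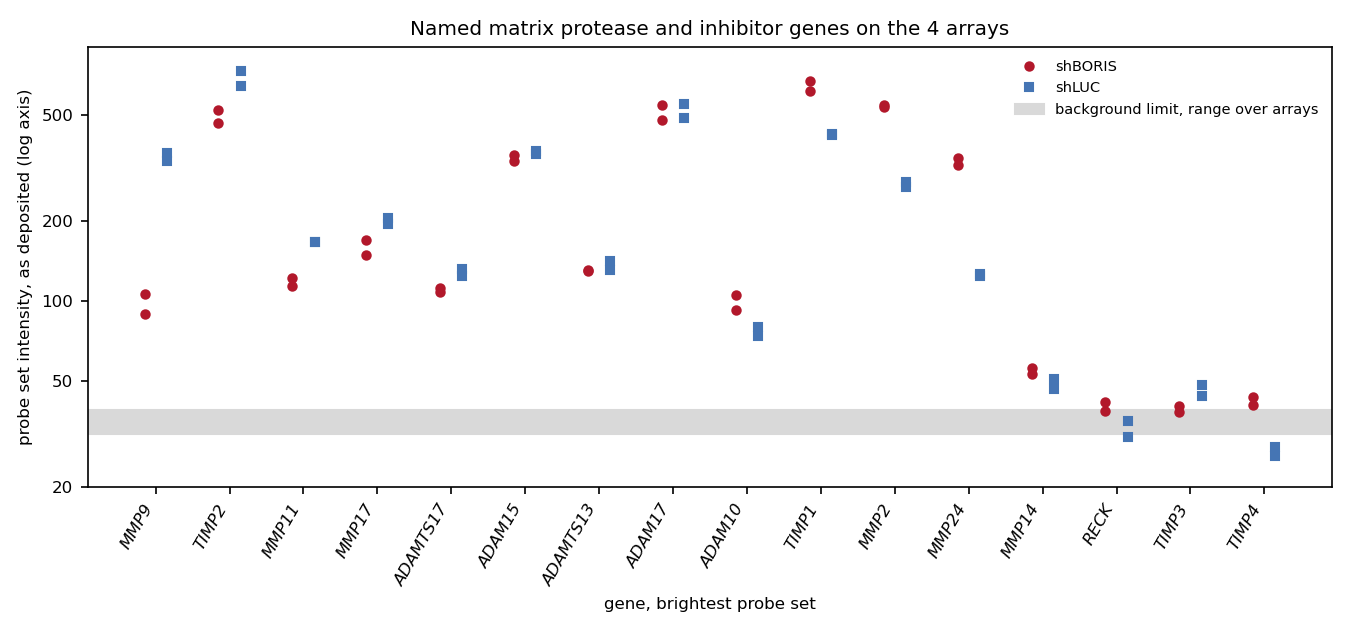
Deposited intensity on a log axis for 16 named members on each array, with the 2 shBORIS arrays (circles) left of the 2 shLUC arrays (squares) and the background limit in grey. MMP9, TIMP2, MMP11, MMP17 and ADAMTS17 sit lower on both shBORIS arrays, ADAM10, TIMP1, MMP2 and MMP24 sit higher, and the last 4 genes were under the filter.

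Of 9 tested ADAM genes, 5 were called higher as deposited (55.6%) and 0 lower, where 77.2% and 4.64% of all genes tested were. After centring 0 of these ADAM genes rose and 4 fell (44.4%), where 30.3% and 28.8% of all genes tested did. ADAM17, the main sheddase of tumour necrosis factor and of several epidermal growth factor receptor ligands, had intensities of 478 and 545 in shBORIS cells and of 548 and 487 in shLUC cells. The groups overlapped as deposited (log2 -0.02, limma adjusted p = 0.898), and ADAM17 fell by 0.49 after centring (SE 0.06; limma adjusted p = 7.31e-05). Its 3 probe sets above the filter differed by -0.54 to -0.49 after centring. ADAM10, the sheddase of NOTCH receptors and N-cadherin, had 92.4 and 105.2 in shBORIS cells and 79.7 and 73.8 in shLUC cells. It was called higher by 0.31 as deposited and read -0.17 after centring, where it was not called (limma adjusted p = 0.0911). With a pseudocount of 64, with probe sets averaged or with no intensity trend, ADAM10 was called lower after centring (limma adjusted p = 0.0124, 0.00429 and 0.0416). Its deposited call was lost without shBORIS replicate 2 (limma adjusted p = 0.129) or shLUC replicate 2 (limma adjusted p = 0.0705).

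ADAM15, a metalloprotease-disintegrin with an integrin-binding motif, had 336 and 352 in shBORIS cells and 357 and 365 in shLUC cells. It fell by 0.54 after centring (SE 0.07; limma adjusted p = 6.88e-05) and read -0.07 as deposited, and its 6 probe sets differed by -0.54 to -0.25 after centring. The meltrins ADAM12 and ADAM19 fell by 0.27 and 0.34 after centring and read 0.21 and 0.13 as deposited, where neither was called. ADAM12 lost its relative call without shBORIS replicate 2 and without either shLUC replicate. ADAM9, ADAM33 and the catalytically inactive neural members ADAM23 and ADAM11, which act as adhesion or LGI-binding proteins, were called higher as deposited by 0.61, 0.53, 0.48 and 0.30. Relative to the median gene these 4 read 0.14, 0.05, 0.01 and -0.18 and none was called. The probe sets of ADAM11 disagreed, since its other 2 were called higher after centring, by 0.44 and 0.25 (limma adjusted p = 5.26e-04 and 0.0263 over all cellular probe sets), so the direction of ADAM11 is uncertain there. ADAM11 lost its deposited call without shBORIS replicate 1 or shLUC replicate 2, and with replicate number as a block.

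Of 7 tested ADAMTS genes, 3 were called higher (42.9%, against 77.2% of all genes tested) and 0 lower (4.64%) as deposited. After centring 0 rose (30.3% of all genes tested) and 4 fell (57.1%, against 28.8%). ADAMTS17, a poorly characterised member linked in humans to short stature and lens disease, had 112 and 108 in shBORIS cells and 132 and 124 in shLUC cells. It was lower on both shBORIS arrays and fell by 0.67 after centring (SE 0.08; limma adjusted p = 5.71e-05), with -0.19 as deposited, where it was not called (limma adjusted p = 0.0886). ADAMTS13, the protease that trims von Willebrand factor, had 130.2 and 129.6 in shBORIS cells and 140.7 and 130.3 in shLUC cells. The lower shLUC value lay within 1 intensity unit of both shBORIS values, and ADAMTS13 fell by 0.53 after centring (SE 0.07; limma adjusted p = 1.61e-04) with -0.05 as deposited.

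The hyalectanases ADAMTS1, ADAMTS4 and ADAMTS9, which cut versican and aggrecan, read 0.19, 0.34 and 0.37 as deposited, with ADAMTS4 and ADAMTS9 called higher. Relative to the median gene ADAMTS1 fell by 0.28, and ADAMTS4 and ADAMTS9 read -0.14 and -0.11 and were not called. Of the procollagen N-propeptidases, ADAMTS3 was called higher by 0.62 as deposited and read 0.14 after centring, while ADAMTS14 read 0.03 as deposited and fell by 0.45 after centring. No test of the difference between these 2 genes was made. ADAMTS-like proteins lack the protease domain. ADAMTSL2, which binds matrix proteins that hold latent TGF-beta, was called higher by 0.60 as deposited and read 0.12 after centring, and ADAMTSL5 read 0.23 and -0.25 and was not called on either scale. ADAMTS4, MMP28 and ADAM11 lost their deposited calls without shLUC replicate 2.

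Under the filter lay 44 members, with means over the arrays of 10.7 to 60.1, and 14 of them were above the background limit on all arrays. Fitted with no filter on the deposited scale, 9 of the 44 were called higher and 1 lower, and their median was 0.12. Of all 18244 genes 53.6% were called higher and 3.73% lower, with a median of 0.28. These values include the 10946 brighter genes, of which 8455 were called higher and 508 lower in the filtered fit. They are therefore not the shares or median of genes under the filter, and give no like comparison for these 44 members. The following 4 were singled out after their values were seen. ADAMTS5, a major aggrecanase, had 50.0 and 53.7 in shBORIS cells and 34.1 and 28.8 in shLUC cells, and was called higher by 0.52 as deposited (limma adjusted p = 2.00e-05), though 1 shLUC array was under the background limit. After centring ADAMTS5 read 0.04 and was not called (limma adjusted p = 0.734 over all cellular probe sets). MMP16 (MT3-MMP) had 55.8 and 61.1 in shBORIS cells and 45.0 and 34.7 in shLUC cells, and was called higher by 0.42 as deposited (limma adjusted p = 5.28e-04), with a centred -0.06 that was not called (limma adjusted p = 0.633 over all cellular probe sets). ADAMTSL4, the member called lower, had 40.2 and 50.8 in shBORIS cells and 68.7 and 56.6 in shLUC cells. Its difference was -0.35 as deposited and -0.83 after centring (limma adjusted p = 2.20e-05 over all cellular probe sets). MMP26 was above background in shBORIS cells alone, at 40.6 and 39.1 against 29.3 and 31.0 in shLUC cells. This bounds its difference as at least 1.25-fold higher as deposited, while its centred value was -0.20 and was not called. The margin was narrow, as the limits were 38.8 on shBORIS replicate 2 and 31.5 on shLUC replicate 2.

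The level of a gene moved with its difference. Of the 27 tested members 19 lay in the 4 dimmest deciles of the genes tested, whose median centred differences were -0.17 to -0.01, while those of the brighter deciles were -0.01 to 0.15. Set against the median of their own decile, 20 members were lower and 7 higher, with a median of -0.17. Background controls with at most 15 G or C differed by -0.02 to 0.05 as deposited, and those with 16 to 24 G or C by 0.13 to 0.54. The part of level and background in the relative falls of dim members was not tested. Nor was it tested for MMP9, TIMP2, MMP17 and the brightest probe set of MMP11, which were lower on the deposited scale as well. The other MMP11 probe set was higher by 0.34 on that scale.

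**Figure D4:**
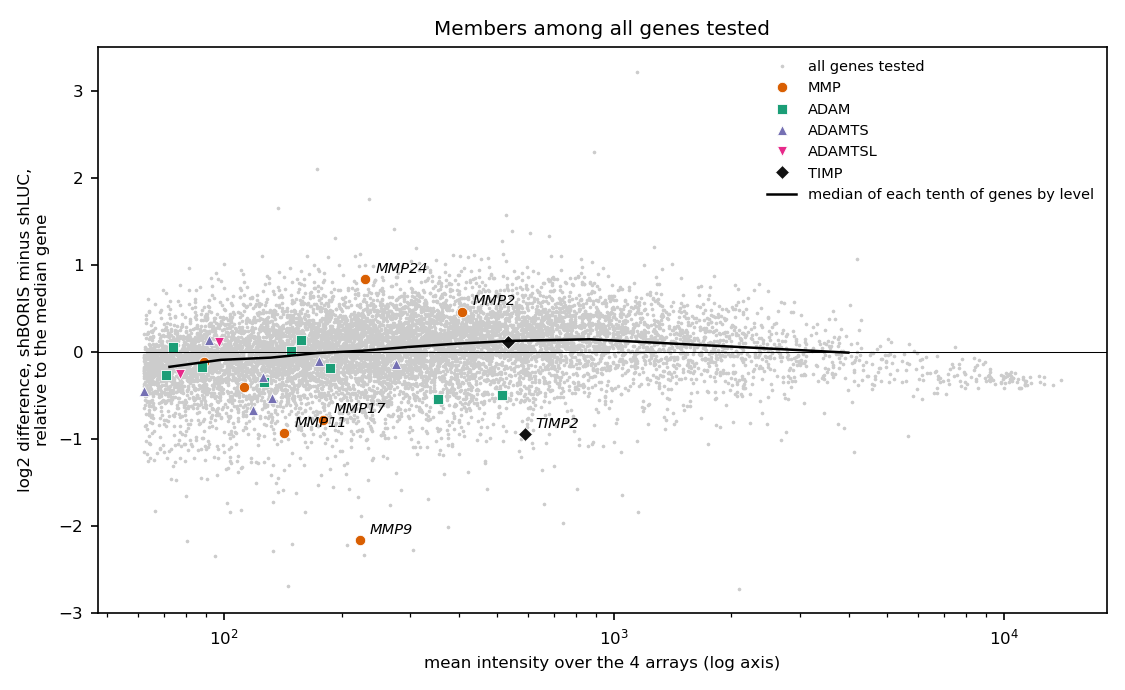
Log2 difference (shBORIS minus shLUC) after centring against mean intensity over the 4 arrays on a log axis, with all 10946 genes tested in grey, tested members coloured by family and the median of each decile of genes by level as a line. MMP9 lies far below the line at its level, TIMP2, MMP11 and MMP17 also lie below it, and MMP24 and MMP2 lie above it.

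Genes of the wider protease system were also set beside the members, in lists chosen for known function. Over all genes tested 30.3% rose and 28.8% fell after centring, and 77.2% were called higher and 4.64% lower as deposited. Of 10 tested genes of the plasminogen system, which activates several MMP precursors, 0 rose and 8 fell after centring, with a list median of -0.34. As deposited 3 of them were called higher and 1 lower, with a median of 0.14. The urokinase gene PLAU had 76.9 and 81.6 in shBORIS cells and 90.9 and 90.5 in shLUC cells and fell by 0.64 after centring, with -0.16 as deposited. The protease inhibitors SERPINE2 and SERPINI1 fell by 0.41 and 0.84, and the plasminogen-binding protein ANXA2 by 0.36, after centring, while SERPINE2 and ANXA2 read 0.07 and 0.12 as deposited and were not called. Among these 4, SERPINI1 was also called lower as deposited (-0.36), with shLUC intensities of 174 and 120 that stood well apart from each other.

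Of 8 tested genes for other extracellular metalloproteases, 1 rose and 4 fell after centring, and 5 were called higher and 1 lower as deposited. ECEL1, a neuronal relative of the endothelin-converting enzymes, had 131 and 125 in shBORIS cells and 305 and 321 in shLUC cells. It fell by 1.19 as deposited and by 1.67 after centring on the log2 scale (SE 0.08). BMP1, the procollagen C-proteinase, and ECE2 fell by 0.64 and 0.62 after centring, and read -0.17 and -0.14 as deposited, where neither was called.

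Of 12 tested inhibitors and adaptors outside the TIMP family, 3 rose and 5 fell after centring, with a median of -0.11. On the deposited scale 8 were called higher and 1 lower, with a median of 0.37. The testican SPOCK1, a secreted proteoglycan, fell by 0.77 after centring and by 0.29 as deposited. PCOLCE, an enhancer of procollagen processing, and the cystatin CSTB rose by 0.38 and 0.39 after centring and by 0.86 and 0.86 as deposited.

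Of 20 tested genes for trafficking and activation of ADAM10 and ADAM17, 3 rose and 7 fell after centring, with a median of -0.07. Their deposited calls were 14 higher and 2 lower, with a median of 0.41. The tetraspanin TSPAN33, a partner of ADAM10, had 640 and 699 in shBORIS cells and 911 and 836 in shLUC cells and fell by 0.85 after centring and by 0.37 as deposited. RHBDF2, which carries ADAM17 to the cell surface, had 86.3 and 86.1 in shBORIS cells and 113 and 130 in shLUC cells and fell by 0.91 after centring and by 0.43 as deposited. The scaffold gene DLG1 rose by 0.51 after centring and by 0.99 as deposited.

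Of 21 tested substrates that ADAM proteases shed, 3 rose and 11 fell after centring, with a median of -0.26. As deposited 10 of these substrates were called higher and 3 lower, with a median of 0.21. HBEGF, an epidermal growth factor receptor ligand released by ADAM17, had 90.3 and 86.1 in shBORIS cells and 190 and 185 in shLUC cells. It fell by 0.96 as deposited and by 1.44 after centring on the log2 scale (SE 0.08). The receptor phosphatase PTPRK fell by 0.97 and the NOTCH ligand DLL1 by 0.55 after centring, with -0.50 and -0.07 as deposited, where DLL1 was not called. The adhesion gene NECTIN1 rose by 0.59 after centring and by 1.07 as deposited.

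Of 14 tested matrix substrates and partners of ADAMTS proteases, 1 rose and 11 fell after centring, with a median of -0.28. As deposited 5 of these were called higher and 4 lower, with a median of 0.20. The gene that rose after centring was VCAN, coding for the proteoglycan versican, with 592 and 620 in shBORIS cells and 297 and 255 in shLUC cells. It rose by 0.62 after centring and by 1.09 as deposited. COL1A1, TNC (tenascin C) and HAPLN2 fell by 1.11, 0.82 and 0.74 after centring and by 0.63, 0.34 and 0.26 as deposited.

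Of 20 tested transcription factors reported to act at protease promoters, 7 rose and 7 fell after centring, with a median of -0.10. On the deposited scale 13 were called higher and 1 lower, with a median of 0.37. The AP-1 subunit JUN had 292 and 311 in shBORIS cells and 531 and 469 in shLUC cells and fell by 1.17 after centring and by 0.70 as deposited. NFKB1 and SNAI2 rose by 0.65 and 0.55 after centring and by 1.12 and 1.03 as deposited. TWIST1 fell by 0.56 after centring and read -0.08 as deposited, where it was not called.

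Several proteases of this kind are made by stromal, glial and immune cells, so markers of those cells were read on the same arrays. Sums over these lists are of deposited intensities, a scale on which most genes were brighter in shBORIS cells. Of 7 fibroblast markers 4 were above the background limit on no array (COL3A1, DCN, PDGFRA and FAP). The summed intensities of the list were 463 and 477 in shBORIS cells and 366 and 364 in shLUC cells. The 1 tested fibroblast marker was called higher by 0.43 as deposited and read -0.05 after centring, where it was not called. Of 6 immune markers 4 were above it on no array (PTPRC, CD14, LYZ and ITGAM), with sums of 210.5 and 200.1 in shBORIS cells and 200.5 and 190.5 in shLUC cells. Of 5 endothelial markers CDH5 and TEK were above it on no array, with sums of 224 and 234 in shBORIS cells and 219 and 196 in shLUC cells. Of 5 Schwann cell and glial markers CDH19 was above it on no array, with sums of 429 and 490 in shBORIS cells and 574 and 514 in shLUC cells. In that list NGFR fell by 0.77 after centring and by 0.30 as deposited, and ERBB3, under the filter, had 23.4 and 22.7 in shBORIS cells and 74.3 and 66.2 in shLUC cells. SOX10 and S100B of the same list were higher on both shBORIS arrays, with SOX10 at 61.9 and 80.2 in shBORIS cells and 52.1 and 42.2 in shLUC cells. Thus as deposited 2 markers of the list were lower in shBORIS cells, as were MMP9 and TIMP2, and 2 were higher. On that scale the median gene tested was itself higher by 0.48, and SOX10 and S100B, under the filter, are not given after centring. All arrays came from cultures of the Kelly neuroblastoma line, so these markers are read as genes of that line and do not count glial cells. How they relate to the results for MMP9 and TIMP2 was not tested.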

How the data were processed

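RNA of 4 cultures, 100 ng per array with ERCC spike-ins per the labels, was measured on PrimeView arrays, and the deposited series table holds 1 linear intensity per probe set and array. Per the submitters' processing notes the tools were MAS5, affy and R 3.1.3, with no roles stated. For the scaling between arrays, no step was given in the sources used here. Of 49495 probe sets, 202 were controls, 45278 named 1 gene, 1333 named several (left out) and 2682 were unnamed. Each gene took its brightest probe set by the mean over the arrays. The filter for testing was the 40th percentile of these gene means (62.2). The deposited intensities were converted here to log2(intensity + 16) and fitted with limma 3.58.1 in R 4.3.3 (intensity trend, two-sided, Benjamini-Hochberg over 10946 genes, threshold 0.05), as deposited and after each array's median was subtracted. The fit was checked on simulated data. The number of arrays limits the precision, and an exact permutation test of 2 against 2 arrays cannot give a p under 0.333. Same-numbered replicates of the groups shared only a number. The members, lists and rules were chosen with earlier results of these data known. Members named with all their values were TIMP1 to TIMP4, RECK, MMP2, MMP9, MMP14, ADAM10 and ADAM17, those called lower as deposited, and those called after centring by 0.5 or more with no overlap. Of each wider list up to 4 genes with the smallest centred p were named. Alternatives were other pseudocounts, filters, normalizations and probe set rules, a prior without trend, a replicate block and each array left out. Figures were drawn with Python 3.11.15 and matplotlib 3.10.9.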

Additional observations from a re-analysis of the deposited data

How the results depend on the processing

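With 2 arrays per group the falls of MMP9 and TIMP2 and the rises of MMP2 and MMP24 kept direction and call on both scales under all alternatives run. Among members called higher as deposited, 13 in the report, there were 22 without a filter, 6 once the filter was raised to the 60th percentile, and 2 after quantile normalization. Members called lower as deposited, 4 in the report, numbered 12 after quantile normalization, which over all genes gave 2940 higher and 3106 lower calls in place of 8455 and 508, since it removes the shift between arrays by construction. The median member as deposited (0.23) was 0.27 with a pseudocount of 1, 0.15 with 64, 0.15 with no filter, 0.30 with the 60th percentile, -0.19 after quantile normalization, 0.18 with the mean of probe sets, and 0.18 to 0.34 with 1 array left out. After centring, members called higher (2) numbered 6 unfiltered and 5 when probe sets were averaged, and members called lower (13) numbered 29 with no filter and 8 with the 60th percentile, where fewer genes were tested. The centred median (-0.25) was -0.16 after quantile normalization and -0.27 to -0.19 with 1 array left out. As deposited, quantile normalization turned the sign of 12 of the 27 members and ended 11 calls, those of ADAM9, ADAM10 (-0.079), ADAM11, ADAM23, ADAM33, ADAMTS3, ADAMTS4, ADAMTS9, ADAMTSL2, MMP28 and TIMP1 (-4.57e-04). The sign also turned for ADAM15 (0.13) and ADAMTS13 (0.082) with the mean of probe sets, and for ADAM17 between -0.11 and 0.075 with 1 array left out; where not stated, the cause was not tested. With 1 array left out, 9 to 14 members were called higher and 3 to 4 lower as deposited, and 2 to 3 higher and 12 to 14 lower after centring. Members above background on all arrays numbered 3 by the 95th percentile and 41 by the limit at 17 of 25 G or C, which was added after the data were seen. With replicate number as a block, 12 members were called higher and 4 lower as deposited (ADAM11 lost its call), and 2 higher and 13 lower after centring; deviations of same-numbered arrays correlated at 0.098 over 10946 genes. Centring on the ERCC probe sets left 13 and 4 calls on the deposited scale and cannot alter the centred one.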

Other observations

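Probe sets that name several genes were left out of the fits, and 2 of them concern the same families. The one for MMP23B and its copy MMP23A had intensities of 31.5 and 46.4 in shBORIS cells and of 41.8 and 35.1 in shLUC cells. The one for ADAM21 and its pseudogene ADAM21P1 had 29.2 and 27.1 in shBORIS cells and 24.0 and 22.6 in shLUC cells.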
